A study of Mus musculus with 3 samples.

Results

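Group 2 innate lymphoid cells (ILC2) of the mouse pancreas were followed in droplet single-cell RNA libraries of sorted live CD45+ leukocytes. Members were chosen by measured values: a kept barcode needed at least 1 unique molecular identifier (UMI, 1 counted RNA molecule) of at least 3 of the 7 genes Gata3, Il1rl1, Areg, Il5, Il13, Il17rb and Klrg1. It also needed no UMI of Cd3d or Cd3e (T cells), Foxp3 (regulatory T cells), Cpa3, Cma1 or Mcpt4 (mast cells), Ncr1 (NK cells), Cd79a (B cells) or Csf1r (myeloid cells). Of 14302 barcodes with at least 1000 UMIs and at most 30% mitochondrial UMIs, 370 were members. The mice were C57BL/6J, of both sexes and 6 to 8 weeks old at use, with no transgene named. They received either PBS or 1 intraperitoneal dose of 1 mg of WGP, a particulate beta-glucan prepared from yeast cell walls, in 200 µl of PBS. The groups were PBS, 3-day WGP and 7-day WGP, the latter killed 3 and 7 days after the dose, with 1 library each. How many mice, and of which sex, made up each library was not given in the sources used here. Differences between libraries therefore have no replicate check and were not tested. Every interval is an exact 95% interval that covers counting error only.

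ILC2 are tissue-resident lymphocytes without rearranged antigen receptors that depend on the transcription factors GATA3 and RORα. They are activated by the alarmins IL-33, IL-25 and TSLP, which stressed epithelial and stromal cells release, and by lipid mediators and neuropeptides. They respond with type 2 cytokines, chiefly IL-5, which sustains eosinophils, and IL-13, which acts on epithelium and macrophages. They also release amphiregulin, an epidermal growth factor receptor ligand linked to tissue repair. In the pancreas, ILC2 have been tied to signals from IL-33.

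The libraries held between 48219246 and 56849043 UMIs. Kept barcodes numbered 5249, 4879 and 4174 for PBS, 3-day WGP and 7-day WGP. Members were shallower than the other leukocytes, with a median of 3693 UMIs against 5755 over all kept barcodes in PBS and 2946 against 5754 in 3-day WGP. Members with over 10000 UMIs numbered 4, 5 and 1 in the same order, and no doublet caller was run. Pairs of libraries shared 9, 1 and 5 kept barcodes, none of them a member.

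ILC2 were 157 of 5249 kept barcodes in PBS (2.99%, 2.55 to 3.49%). They were 204 of 4879 in 3-day WGP (4.18%, 3.64 to 4.78%) and 9 of 4174 in 7-day WGP (0.216%, 0.0986 to 0.409%). Against PBS the log2 ratio of the share was 0.48 (0.18 to 0.79) at 3 days and −3.79 (−4.95 to −2.83) at 7 days. The 7-day library thus held few ILC2, and the 3-day share was above that of PBS on this denominator. Among barcodes without Csf1r and Cd79a, which leaves out most myeloid and B cells, ILC2 were 9.46% (8.09 to 11.0%) in PBS and 8.70% (7.59 to 9.92%) in 3-day WGP. On this denominator the 3-day log2 ratio was −0.12 (−0.43 to 0.19), so its direction depended on which cells were counted. At 7 days the share was 0.494% (0.226 to 0.936%) and the log2 ratio −4.26, far below the other libraries on either denominator. Shares of a sort depend on how many cells of every other type were in it, so fewer ILC2 and more of other leukocytes cannot be told apart.

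The share also differed by the sex-linked RNA of the cells, and every library held cells with Xist and cells with RNA of Y genes. The cause of this difference was not tested. Y cells, with a UMI of Ddx3y, Eif2s3y, Kdm5d or Uty and none of Xist, gave 56 ILC2 of 1736 in PBS (3.23%) and 88 of 2510 in 3-day WGP (3.51%), a log2 ratio of 0.12 (−0.38 to 0.63). Xist cells, with Xist and no Y gene, gave 49 of 2039 in PBS (2.40%) and 3 of 479 in 3-day WGP (0.626%), a log2 ratio of −1.94 (−4.27 to −0.31). At 7 days 3 of 1865 Y cells (0.161%) and 3 of 1208 Xist cells (0.248%) were members, with log2 ratios to PBS of −4.33 and −3.28. Cells with neither RNA gave 52 of 1470 in PBS (3.54%) and 113 of 1835 in 3-day WGP (6.16%), a log2 ratio of 0.80 (0.31 to 1.30), and 3 of 1028 at 7 days (0.292%). The 3-day share was thus close to that of PBS in Y cells, lower in Xist cells, of which the 3-day library held few, and higher in cells with neither.

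**Figure D1:**
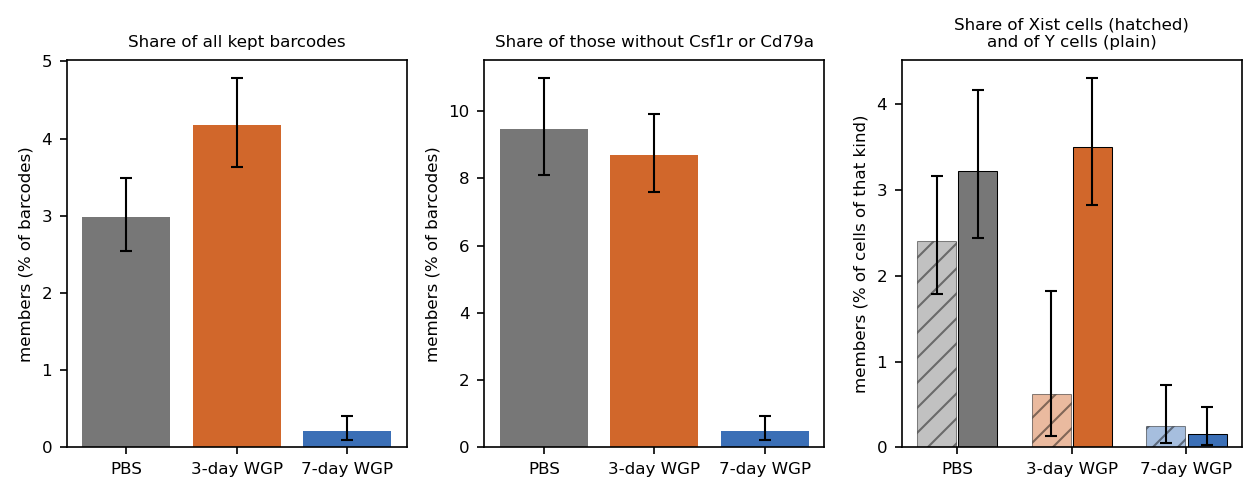
Members as a percentage of kept barcodes in each library (left), of kept barcodes with no Csf1r or Cd79a UMI (middle), and of Xist or Y cells (right), with exact 95% intervals. The 9 members of 7-day WGP sit below both other libraries in every panel, and the 3-day and PBS intervals overlap in the middle panel.

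At the edge of the rule, 100 PBS members and 95 3-day members had exactly 3 of the 7 genes. A further 71 PBS and 57 3-day barcodes had 2 genes and no excluded gene and stayed outside. Those just outside resembled those just inside in Il7r, the IL-7 receptor chain, at 1072 CPM (UMIs per 1000000 UMIs summed over the members of a library) against 978 CPM in PBS. Arg1 was 445 CPM just outside and 666 CPM just inside in PBS. Genes of other cells took 53, 58 and 23 of the barcodes with 3 or more rule genes away in PBS, 3-day WGP and 7-day WGP. Of 32 such barcodes at 7 days, 23 carried Cd3d or Cd3e and 16 carried Foxp3, so most cells with these genes at 7 days were T cells by the rule.

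The rule's own genes describe the members, and their values support nothing further. Gata3 (chr2:9857078-9890034, minus strand, build mm10) encodes the transcription factor that ILC2 require. It was 976 CPM (906 to 1051) in PBS, 906 CPM (836 to 980) in 3-day WGP and 794 CPM in 7-day WGP, with a UMI in 151, 189 and 9 members. Il1rl1 (chr1:40429570-40465415, plus strand), which encodes the IL-33 receptor chain ST2, was 579, 560 and 397 CPM. Both stayed level between PBS and 3-day WGP, with log2 ratios of −0.11 and −0.05 after 10 CPM was added to each value. Il17rb (chr14:29996135-30008896, minus strand), the IL-25 receptor chain, was low throughout at 49.9 CPM in PBS and 21.8 CPM in 3-day WGP, with 1 UMI at 7 days. Klrg1 (chr6:122270596-122282882, minus strand), an inhibitory lectin-like receptor, was 345 CPM in PBS, 487 CPM in 3-day WGP and 277 CPM in 7-day WGP.

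Among the effector genes of the rule, Il5 (chr11:53720794-53725106, plus strand) differed most between PBS and 3-day WGP. It was 73.4 CPM (55.0 to 96.0) in PBS, 294 CPM (255 to 337) in 3-day WGP and 204 CPM in 7-day WGP, in 19, 62 and 2 members. Its 3-day log2 ratio to PBS was 1.87, with an interval of 1.56 to 2.47 for the plain ratio. With each cell thinned to 1000 UMIs, 7.01% of PBS members and 19.6% of 3-day members still had an Il5 UMI. Since Il5 helped to choose the cells, members were also chosen by at least 3 of the other 6 genes. Il5 was then in 13 of 151 PBS members and 51 of 193 3-day members, at 67.8 and 279 CPM. All of these cells were also members by the 7 genes, which gave 157 and 204. This choice could therefore change the level little, and it is a description only.

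Areg (chr5:91139599-91148432, plus strand) was 1087 CPM (1012 to 1166) in PBS, 1692 CPM (1597 to 1793) in 3-day WGP and 1503 CPM in 7-day WGP. It was seen in 49.0% of PBS and 67.2% of 3-day members, or in 33.8% and 49.0% after thinning. Chosen by the other 6 genes, members had 771 CPM of Areg in PBS and 1469 CPM in 3-day WGP, and 254 and 459 CPM of Klrg1. Il13 (chr11:53631324-53634702, minus strand) was sparse, at 94.2 CPM in 7 PBS members, 65.4 CPM in 20 3-day members and 24.0 CPM in 2 7-day members. A single PBS cell held 32.4% of the PBS Il13 UMIs, so more cells carried Il13 at 3 days at a lower summed level. In thinned B cells, which should lack these genes, at most 0.685% of cells had a UMI of any of the 7.

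The starts of Il5, Il13 and Il1rl1 are shown because Il5 and Il13 sit in the type 2 cytokine locus, which GATA3 is known to bind, and Il1rl1 gives ILC2 their IL-33 receptor. Each run is the 250 bases before the RefSeq gene start in GRCm38.p6, read 5′ to 3′ on the gene's strand. Capitals mark the GATA motif, searched as AGATAA and also as AGATAG, and further as TGATAA and also as TGATAG, on both strands.
Il5, chr11:53720544-53720793, plus strand: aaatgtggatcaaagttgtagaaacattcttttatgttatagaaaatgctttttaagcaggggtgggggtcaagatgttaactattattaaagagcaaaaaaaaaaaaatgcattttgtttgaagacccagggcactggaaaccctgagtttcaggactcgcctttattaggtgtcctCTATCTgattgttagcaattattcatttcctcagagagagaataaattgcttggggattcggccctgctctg
Il13, chr11:53634703-53634952, minus strand: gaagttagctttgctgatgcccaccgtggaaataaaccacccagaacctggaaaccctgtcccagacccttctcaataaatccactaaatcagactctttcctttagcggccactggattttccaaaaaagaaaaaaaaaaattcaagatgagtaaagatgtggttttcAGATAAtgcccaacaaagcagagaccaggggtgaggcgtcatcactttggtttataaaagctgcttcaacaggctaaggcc
Il1rl1, chr1:40429320-40429569, plus strand: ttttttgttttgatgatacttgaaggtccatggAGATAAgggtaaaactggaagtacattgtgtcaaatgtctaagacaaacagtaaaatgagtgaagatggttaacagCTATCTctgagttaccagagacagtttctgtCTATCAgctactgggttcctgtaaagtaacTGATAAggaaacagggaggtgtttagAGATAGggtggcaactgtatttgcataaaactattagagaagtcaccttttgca
The Il5 window held 1 match, 72 bases before the start, and the Il13 window held 1, at 81 bases. The Il1rl1 window held 5, beginning 217, 141, 110, 80 and 54 bases before the start. Over all 32851 RefSeq windows of this length, 26.5% held at least 1 match and 14 windows (0.0426%) held as many as 5. Of the other rule genes in the table, Gata3, Areg and Il17rb held no match in this window, and a second start of Il1rl1 held 1. A match is a description of the letters and no evidence of binding.

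The label ILC2 was checked on genes outside the rule. The receptor chain Il7r was seen in 153 of 157 PBS members, 187 of 204 3-day members and all 9 7-day members, at 993, 1009 and 842 CPM. Rora, which encodes RORα, was 352, 359 and 228 CPM. Id2, the repressor that all innate lymphoid cells need, was 1087, 1405 and 1202 CPM, and 988, 948 and 1016 CPM in NK cells. Of other ILC2 identity genes, Nmur1 was nearly absent, with 6, 4 and 0 UMIs. Rxrg, which the study lists among its ILC2 markers, had 2, 4 and 0 UMIs. Of the T-cell genes not in the rule, Trac had 1 UMI in PBS members, 5 in 3-day members and 0 in 7-day members. The 12 T-cell genes together were 1483, 1487 and 962 CPM, against 5001 to 5234 CPM in CD4 T cells, and came mostly from Trbc1, Trbc2, Cd3g and Tcrg-C1. The members thus carried Il7r, Rora and Id2, but hardly any Nmur1 or Rxrg, with next to no T-cell receptor alpha RNA.

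NK genes were also near absent, with 7 genes summing to 27.7, 1.45 and 0 CPM against 8958 to 10364 CPM in NK cells. Ncr1, among the 7, was held at 0 in members by the rule and was required in the NK cells. Part of this contrast was therefore fixed in advance, and cells with Ncr1 had already been left out. The basophil and mast-cell genes Mcpt8, Ms4a2, Tpsb2, Gata2 and Prss34 had no UMI in members of any library. The list of 9 such genes summed to 9.69 CPM in PBS, 96.0 CPM in 3-day WGP (66 UMIs in 20 members, mostly Hdc) and 204 CPM in 7-day WGP (17 UMIs of Cyp11a1 in 1 member), against 32.7, 44.4 and 28.2 CPM in free RNA. B-cell genes were 314 CPM in PBS, 589 CPM in 3-day WGP and 180 CPM in 7-day WGP, against 14764, 25160 and 8923 CPM in barcodes below 100 UMIs, which hold free RNA. Acinar genes were 159, 82.9 and 24.0 CPM against 11314, 6014 and 11713 CPM in free RNA. Dendritic-cell genes were 159 CPM in PBS, 1521 CPM in 3-day WGP and 2392 CPM in 7-day WGP, which traced to the few members described further on.

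Most genes of the other ILC programs were at or near 0, and a few were not. Eomes, Gzmb and Klrb1c of the ILC1 and NK program had no UMI in members, Tbx21 had 1, 0 and 3, and Ifng had 0, 1 and 0. Of the ILC3 program, Il17a, Il22 and Il23r had no UMI in members. Measured genes of these lists were Stat4, which signals from IL-12, at 95.6 CPM in PBS and 102 CPM in 3-day WGP, and Maf and Batf at 104 and 72.7 CPM and at 63.7 and 65.4 CPM. A count of 0 was read against a floor of 3 UMIs, which in PBS is 4.15 CPM.

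Members were compared with NK cells (107 in PBS, 339 in 3-day WGP) and CD4 T cells (143 and 171). Of 3639 genes outside the rule with at least 50 UMIs in PBS and 3-day members together, 194 (5.33%) were at least 1 log2 unit higher than in both cell types in both libraries. Highest was Cxcl2, a neutrophil-attracting chemokine, at 810 CPM in PBS and 820 CPM in 3-day members, although 38 and 62 members held all its UMIs. The smallest of its 4 log2 ratios was 5.76. Next was Arg1, arginase 1, which was spread widely at 629 and 593 CPM in 129 and 152 members, with a smallest ratio of 4.63. Csf2, which encodes GM-CSF, followed at 458 and 589 CPM and 4.49. The ranking used no other cell types. In all other kept barcodes Cxcl2 was 84.5 CPM in PBS and 487.5 CPM in 3-day WGP, and Arg1 was 11.1 and 217 CPM. Csf2 was 8.13 and 3.25 CPM there. In free RNA Cxcl2 was 116 and 696 CPM.

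Hs3st1, a heparan sulfate sulfotransferase, was 223 CPM in PBS and 521 CPM in 3-day WGP (4.39). Lpcat2, an enzyme of platelet-activating factor synthesis, was 327 and 368 CPM (4.23), and Rnf128, the ubiquitin ligase GRAIL, was 292 and 276 CPM (4.10). Calca, which encodes calcitonin gene-related peptide (CGRP), was 195 and 409 CPM (3.84), and the IL-2 receptor chain Il2ra was 360 and 304 CPM (3.70). Regulatory T cells, with Cd3d or Cd3e and Foxp3 (13 in PBS, 24 in 3-day WGP), were not part of this ranking. They had 87.8 and 292 CPM of Il2ra, near the member level in 3-day WGP. Of the rule genes, they had 54.9 and 440 CPM of Areg and 362 and 283 CPM of Klrg1. The others of the 12 highest were the amino acid transporter Slc7a8, Ccdc184, the leukotriene enzyme Alox5, and Ccl1, a ligand of CCR8, with smallest ratios from 3.40 to 3.64. Of the 12 genes, 4 (Cxcl2, Csf2, Calca and Ccl1) were on the list of secreted factors.

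**Figure D2:**
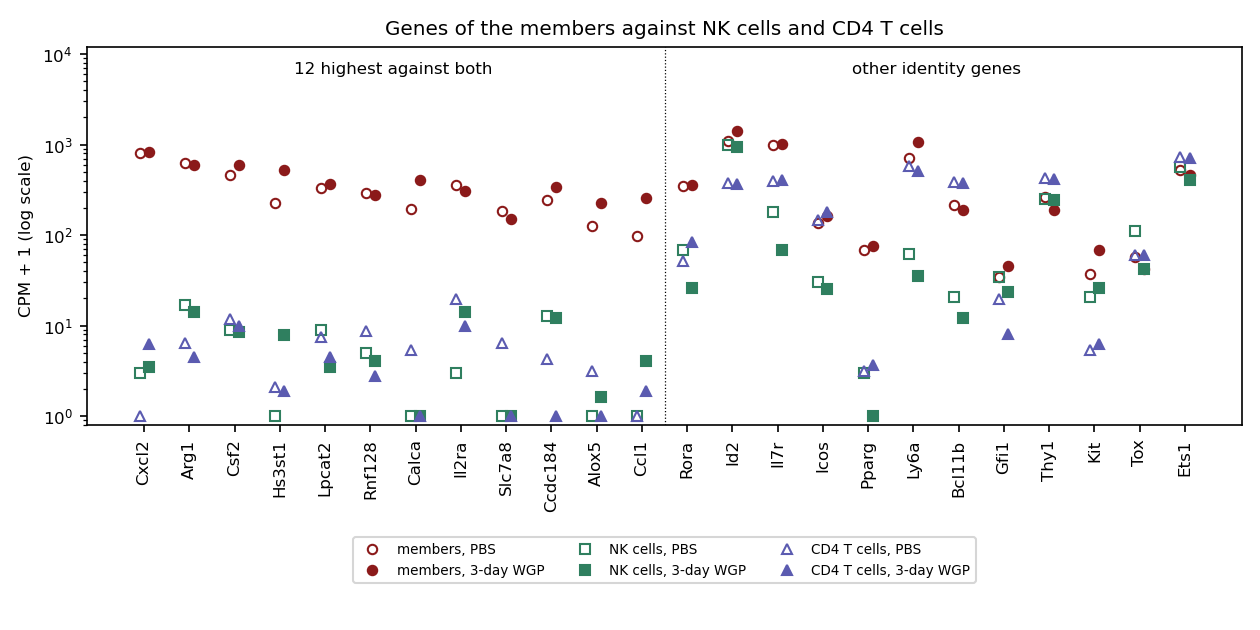
Level of each gene (CPM + 1, log axis) in members, NK cells and CD4 T cells, open symbols for PBS and filled for 3-day WGP. The 12 genes left of the dotted line have the highest ratio to both cell types by rule, and the genes to the right are the other identity genes with at least 50 UMIs, of which Id2 is almost as high in NK cells as in members.

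The lists of pathway genes differed in how many genes passed that bar. In the identity list 7 of 16 genes measured did: Rora, Il7r, Il2ra, Hs3st1, Pparg, Alox5 and Arg1. Among secreted factors 5 of 8 did, namely Csf2, Lif, Calca, Ccl1 and Cxcl2. Alarmin and cytokine receptors gave 6 of 15, among them the TNF-family receptors Tnfrsf25 and Tnfrsf18 and the IL-9 receptor Il9r. Receptors for neuropeptides, lipids and hormones gave 4 of 7, among them Ramp1, part of the CGRP receptor, the prostacyclin receptor Ptgir and the leukotriene receptor Cysltr1.

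Early response genes were also higher in members, with 11 of 15 immediate early and heat shock genes past the bar, none of them a heat shock gene. Junb was 4202 CPM in PBS and 5852 CPM in 3-day WGP, and Fos was 2343 and 2733 CPM. The NF-κB feedback genes Nfkbia and Tnfaip3 were among the 5 of 16 type 2 transcription and signalling genes that passed, at 2169 and 3727 CPM and at 773 and 1336 CPM. No gene passed of 12 interferon-response, 11 glycolysis or 9 proliferation genes. Immediate early genes also respond to tissue digestion and sorting, and the part of handling in their level was not tested.

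WGP treatment was then compared with PBS within the members, over 3646 genes with at least 50 UMIs. By a log2 ratio of at least 1 in size, 43 genes (1.18%) were higher and 32 (0.878%) were lower in 3-day WGP. The median gene had a log2 ratio of −0.03. Most genes, and most measured genes of every list, were within this bound.

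Of the receptors for neuropeptides, lipids and hormones, 7 were measured and 1 was higher by this bound, Ramp3, a receptor activity-modifying protein that partners calcitonin-family receptors. It was 34.6 CPM (22.4 to 51.1) in PBS, 205 CPM (173 to 242) in 3-day WGP and 144 CPM in 7-day WGP, in 18, 75 and 3 members. Its 3-day log2 ratio to PBS was 2.27, and after thinning 2.55% of PBS and 16.7% of 3-day members had a UMI, against 0.147% and 0.166% of B cells. Its relative Ramp1 was 302 and 467 CPM, a log2 ratio of 0.61. Calca, of the secreted factors, was in 22 PBS and 64 3-day members, with a log2 ratio of 1.03 (0.77 to 1.37 for the plain ratio). Ramp3 and Calca were thus both higher over all 3-day members, although Calca was not higher within Y members, as described further on. The receptor gene Calcrl, from the same list as Ramp3, was not among the 7 measured.

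Of the rule genes taken in pairs, more members held both effectors at 3 days. Areg and Il5 were seen together in 5 of 157 PBS members and 43 of 204 3-day members, and Il5 and Il13 in 2 and 7. Areg and Klrg1 were together in 48 and 98. By itself each gene was also in more members at 3 days, Areg in 77 and 137 and Il5 in 19 and 62. Il13 was in 7 and 20, and Klrg1 in 116 and 163. Whether the pairs exceeded what these counts give was not tested. Since the rule asks for 3 genes, these pairs are a description of how members met it.

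Of 16 identity genes measured, of 20 in the list, only Hs3st1 passed, in 72 PBS and 108 3-day members, with a log2 ratio of 1.19 and a list median of 0.07. Of 8 secreted factors Calca and Ccl1 were higher and Ccl5 lower, with a list median of 0.25. Ccl1 (log2 ratio 1.32) came from just 16 PBS and 18 3-day members. Ccl5, a T-cell and NK-cell chemokine, was 88.6 and 39.3 CPM. Over all members Csf2 and Cxcl2 had log2 ratios of 0.35 and 0.02, but their direction depended on the class of member. In Y members both were lower at 3 days, Csf2 at 743 and 456 CPM and Cxcl2 at 1449 and 718 CPM. In members with neither RNA both were higher, Csf2 at 415 and 760 CPM and Cxcl2 at 625 and 964 CPM. Lif, a cytokine of the IL-6 family, was 104 and 125 CPM over all members. Il4 had 20, 12 and 3 UMIs in the libraries by time, Il10 had 1, 1 and 0, and Il9 and Il3 had none.

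**Figure D3:**
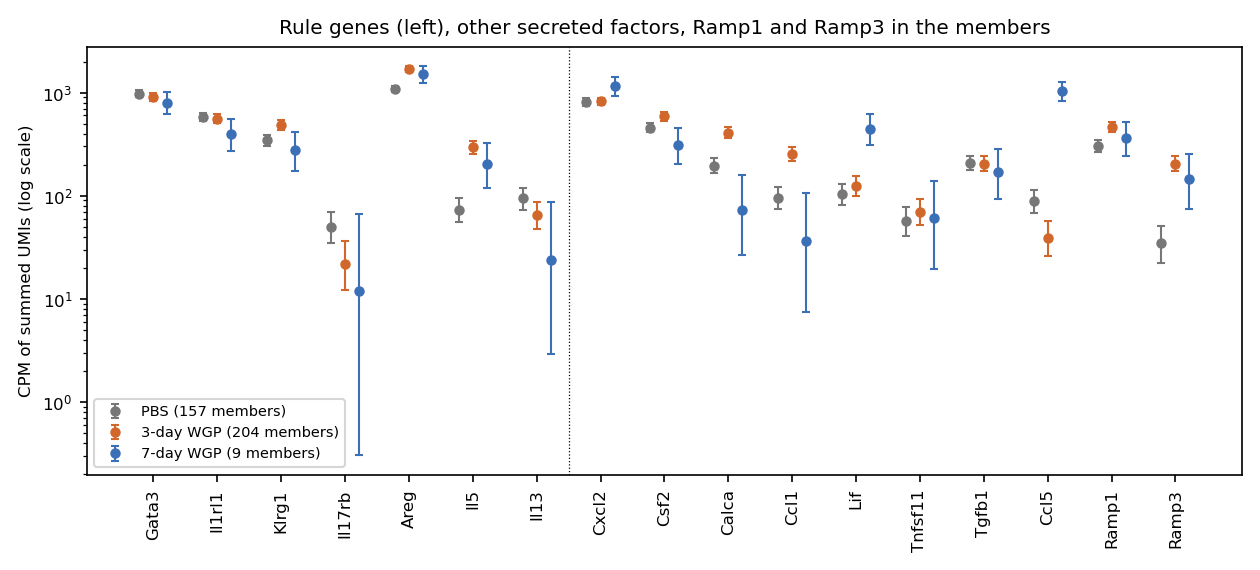
Summed level (CPM, log axis, exact 95% intervals) of the rule genes, other secreted factors, Ramp1 and Ramp3 in the members of each library. Il5 and Ramp3 of 3-day WGP lie above the PBS intervals while Gata3 and Il1rl1 overlap, and the 7-day values rest on 9 members.

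Of 15 alarmin and cytokine receptors, Il10ra, the IL-10 receptor chain, passed at 55.4 and 125 CPM (log2 ratio 1.05, 0.60 in Y members, list median 0.21). Tnfrsf18, which encodes GITR, was 345 and 618 CPM, a log2 ratio of 0.82 that stayed under the bound. Tnfrsf25, the receptor of TL1A, was 108 and 100 CPM. The prostaglandin E2 receptor Ptger4 was lower, at 67.9 and 27.6 CPM in 36 PBS and 15 3-day members. No UMI of the alarmins Il33, Tslp or Il25 was in members. In other kept barcodes Il33 was 2.88 CPM in PBS and 4.13 CPM in 3-day WGP, in a sort that leaves out most epithelial and stromal cells.

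Of 13 trafficking genes, Rgs2, a brake on G-protein signalling, was higher at 699 CPM in 99 PBS members and 1496 CPM in 165 3-day members (log2 ratio 1.09, list median 0.13). Residency genes were present in both libraries, with Cd69 at 749 and 981 CPM and Cxcr6 at 418 and 532 CPM. The chemokine receptor Ccr2 was 1052 and 918 CPM, and Klf2, a transcription factor that drives tissue exit, was 465 and 571 CPM. Klf2 was lower at 3 days in Y members (943 and 683 CPM) and in members with neither RNA (779 and 479 CPM). In PBS Xist members it was 56.1 CPM. The exit receptor S1pr1 had 3 and 1 UMIs. It was thus nearly absent, whereas Ccr2 and Klf2 were not.

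Of 4 inhibitory and costimulatory genes, Pdcd1, which encodes PD-1, was higher at 23.5 CPM in 13 PBS members and 109 CPM in 37 3-day members (log2 ratio 1.83, 1.44 to 3.07 for the plain ratio). Of 8 survival genes Bcl2a1d passed, with a log2 ratio of 1.11, but it has near-identical copies between which reads can be split. Egr1, an immediate early transcription factor, was 125 and 345 CPM in 37 and 78 members (log2 ratio 1.40). Of genes outside the lists, Plaur, the urokinase receptor, was in 5 PBS and 35 3-day members, at 6.92 and 82.9 CPM, a log2 ratio of 2.46, but 7.63% and 5.14% of thinned B cells had it too. Hdc, which makes histamine, was 8.31 and 85.8 CPM in 5 and 13 members, a log2 ratio of 2.39 that was 0.38 in Y members, on 3 and 8 UMIs. No gene passed in the interferon (12 genes), glycolysis (11), type 2 signalling (16), ILC1 (1) or ILC3 (2) lists, whose medians ran from −0.21 to 0.26.

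Within those lists every measured gene stayed under the bound, but some values lay well apart. Of the interferon genes, Isg15 was 48.5 CPM in PBS and 26.2 CPM in 3-day WGP, and the furthest apart was Irf1 at 94.2 and 186 CPM (log2 ratio 0.91). Of the glycolysis genes, Gapdh was 864 and 1035 CPM, Ldha 529 and 676 CPM and Aldoa 485 and 547 CPM. Of the type 2 signalling genes, Stat6, which IL-4 and IL-13 activate, was 59.6 and 62.5 CPM, and the NF-κB subunit Rel had the highest ratio of 0.95 at 38.8 and 84.3 CPM. Interferon receptors differed in direction over all members, with Ifngr1 at 78.9 and 159 CPM and Ifnar2 at 74.8 and 37.8 CPM. Both were under the bound. In Y members Ifngr1 was 126.5 and 120.7 CPM (log2 ratio −0.06) and Ifnar2 was 52.7 and 35.3 CPM (−0.47). In members with neither RNA Ifngr1 was 79.6 and 201 CPM and Ifnar2 was 79.6 and 42.7 CPM. Among identity genes, Icos was 134 and 163 CPM, Thy1 266 and 188 CPM, and Alox5 125 and 223 CPM in 51 and 96 members.

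Other genes were named after their values were seen. Hilpda, a lipid droplet protein of the hypoxia response, was 300.5 CPM (262 to 343) in 77 PBS members and 996 CPM (923 to 1073) in 133 3-day members, a log2 ratio of 1.70 that was 0.73 in Y members. Hes1, a target of Notch signalling, was 76.2 CPM in 15 PBS members and 257 CPM in 58 3-day members, 1.63 over all and 1.39 in Y members. Odc1, the rate-limiting enzyme of polyamine synthesis, was 256 and 596 CPM, 1.19 over all and 0.64 in Y members. The Xist members of PBS were lowest, with 109 CPM of Hilpda and 87.0 CPM of Odc1, so the ratios of these genes were smaller within Y members. Epcam, an epithelial adhesion gene, was 23.5 and 115 CPM in 12 and 62 members.

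Genes of free RNA were kept apart from these. Igkc, the kappa light chain, was 278 CPM in PBS members and 1064 CPM in 3-day members, against 31769 and 53927 CPM in free RNA. Hbb-bs, a beta globin, was 20.8 and 273 CPM with 98.4% of the 3-day UMIs in 1 barcode. Igkc was thus higher at 3 days in members and, by a smaller factor, in free RNA, and Hbb-bs at 3 days rested on 1 barcode. The cause of these levels and their part in other results were not tested.

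The lower genes included heat shock genes. Hspa1a, an HSP70, was 734 CPM in 58 PBS members, 111 CPM in 18 3-day members and 685 CPM in 7-day WGP, a 3-day log2 ratio of −2.63. Hspa1b was 1001, 249 and 1599 CPM, and Hsp90aa1 was 665 and 324 CPM in PBS and 3-day WGP. Hspa1a was also lower at 3 days outside ILC2, at 320 and 168 CPM in NK cells, 443 and 268 CPM in CD4 T cells and 752 and 446 CPM in free RNA. Hspa1b was 316 and 283 CPM in NK cells. In other kept Xist cells Hspa1b was 422 and 423 CPM and Hsp90aa1 417 and 490 CPM, so neither was lower. In other kept Y cells both were, at 867 and 240 CPM and at 879 and 378.5 CPM. Hspa1a and Hspa1b are near-identical copies, and the part of sample handling in their level was not tested.

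Pcsk1, a prohormone convertase, was 130 CPM in 52 PBS members and 39.3 CPM in 24 3-day members, a log2 ratio of −1.51. Cyp51, of sterol synthesis, was 59.6 and 14.5 CPM. Malat1, a nuclear non-coding RNA, was 20244 CPM in PBS and 10079 CPM in 3-day members, in every member of both. Gm42418, a transcript that shares reads with ribosomal RNA, was 6151 and 2111 CPM over all members but 2630 and 2002 CPM in Y members, and 102964 and 58478 CPM in free RNA. Hsph1, a heat shock gene, had a log2 ratio of −1.41. Apoe was 98.3 and 14.5 CPM, with 60.6% of its PBS UMIs in 1 cell. The heat shock genes and Pcsk1 were thus lower across many members, and Apoe in few.

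Of 9 proliferation genes measured, Mki67, Ube2c and Cenpf were lower at 3 days and the list median was −0.69. Most of these UMIs came from few cells, since 1 PBS member held 77.4% of the Mki67 and 92.3% of the Ube2c UMIs, and leaving out the top member moved Cenpf from −2.62 to −0.77. Counted as cells with at least 5 of the 21 genes of the list, 10 PBS members (6.37%, 3.1 to 11.4%) and 9 3-day members (4.41%, 2.04 to 8.21%) were dividing-like. In NK cells the shares were 12.1% in PBS and 14.5% in 3-day WGP. With cells thinned to 1000 UMIs and a bar of 3 genes, 7 PBS members (4.46%) and 4 3-day members (1.96%) remained. The shares of such members overlapped in their intervals, so no difference in dividing cells was detectable at this depth.

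The highest 3-day ratios, apart from that of a hemoglobin gene, were those of class II and dendritic-cell genes, and traced to few barcodes. H2-Ab1, H2-Aa, H2-Eb1 and Cd74, the antigen-presentation genes of dendritic and B cells, together were 238 CPM in PBS and 2470 CPM in 3-day members. In 3-day WGP 4 of 204 members held 97.3% of these UMIs, with 351 to 452 class II UMIs each, while no other member had more than 4. These 4 had between 10695 and 12408 UMIs in all, far above the median member. They carried 238 to 324 UMIs of Cst3, 23 to 34 of Irf8 and 2 to 6 of Xcr1, genes of type 1 dendritic cells, beside 2 to 4 of Gata3 and 1 to 3 of Il7r. By their leading genes they went against the ILC2 label.

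In PBS 1 member held 97 class II UMIs, but with 4463 UMIs in all, 16 of Rora, 8 of Il7r and none of Irf8 or Xcr1 it was unlike these 4. Leaving out every member with at least 5 class II UMIs, a comparison chosen after the data were seen, turned the direction of the class II genes. The log2 ratio went from 3.50 to −0.06 for H2-Ab1, from 3.28 to −0.20 for H2-Aa, from 3.18 to −0.22 for H2-Eb1 and from 2.95 to −0.67 for Cd74. Irf8 had 0 UMIs in PBS members and 126 in 3-day members, 44.1-fold above a PBS floor of 3 counts. The exact interval of its plain log2 ratio began at 5.14. Of the 126 UMIs, 116 were in the 4 barcodes. Without them its log2 ratio, on the 10 UMIs left, was 1.36. Cst3, Naaa, H2-DMb1 and H2-DMa were then under the bound as well. Without such members 34 genes were higher and 29 lower, and the log2 ratios of Il5 and Ramp3 were 1.91 and 2.34. In 7-day WGP 3 members had 24, 82 and 176 class II UMIs, and without them 6 of 4174 kept barcodes (0.144%) were members.

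**Figure D4:**
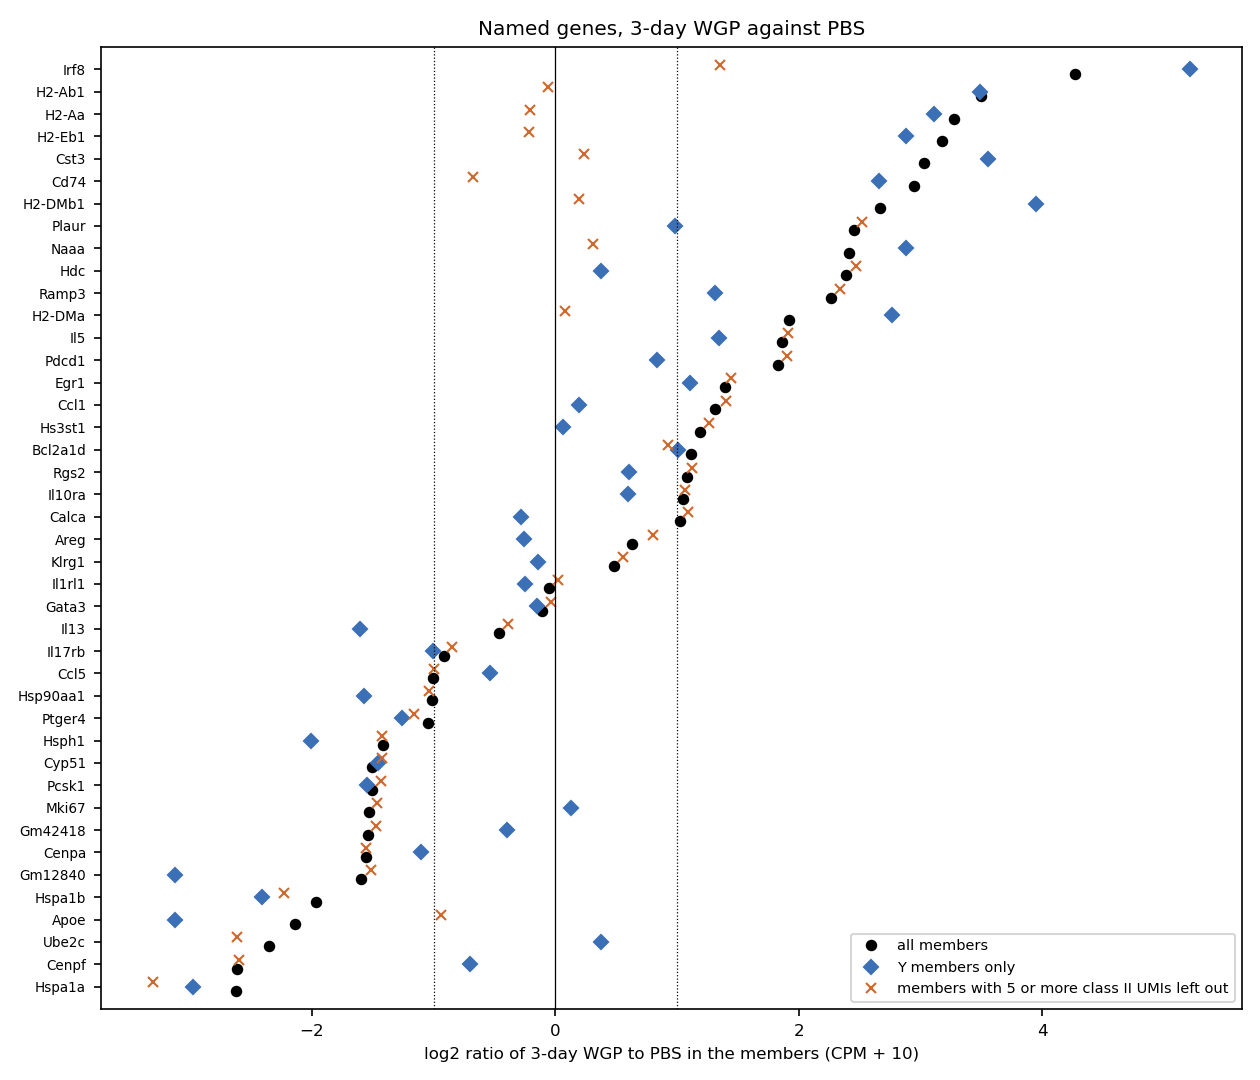
Log2 ratio of 3-day WGP to PBS in members (10 CPM added) for the rule genes and the named genes that were furthest apart, in all members (circles), in Y members only (diamonds) and without members of 5 or more class II UMIs (crosses). Dotted lines mark −1 and 1, and crosses of the class II genes lie between −0.67 and −0.06 while those of Il5, Ramp3 and Hspa1a stay past the lines.

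Because the PBS members held both Xist and Y cells and the 3-day members hardly any Xist cells, levels were compared by sex-linked RNA. Members numbered 49 with Xist and 56 with a Y gene in PBS, and 3 and 88 in 3-day WGP. The PBS Xist members were deeper, at a median of 7144 UMIs against 3048 in PBS Y members and 3094 in 3-day Y members. Other kept barcodes of PBS split likewise, at 10380 UMIs for Xist cells and 5298 for Y cells. Whether sex, the mouse or its handling goes with these levels cannot be told apart here.

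Gata3 and Arg1 were close between the PBS groups, while several effector and identity genes were not. Gata3 was 954 CPM in PBS Xist members, 959 CPM in PBS Y members and 865 CPM in 3-day Y members, and Arg1 was 648, 617 and 559 CPM. Of other identity genes, Il7r was 772 CPM in PBS Xist members and 1212 CPM in PBS Y members, and Thy1 was 356 and 153 CPM. Areg was 511 CPM (439 to 591) in PBS Xist members, 1850 CPM (1661 to 2054) in PBS Y members and 1548 CPM (1419 to 1686) in 3-day Y members. Klrg1 was 269, 453 and 409 CPM and Hs3st1 70.2, 464 and 486 CPM in the same order. Calca was 58.9, 453 and 371 CPM, and Ccl1 was 11.2, 163 and 188 CPM. Among Y members alone the 3-day log2 ratios of these genes were −0.26 for Areg, −0.14 for Klrg1, 0.07 for Hs3st1, −0.28 for Calca and 0.19 for Ccl1. The higher 3-day levels of these 5 genes over all members were therefore not seen within Y members. Members with neither RNA, 52 in PBS and 113 in 3-day WGP, did show them. In these the 3-day log2 ratio was 0.44 for Areg, 0.61 for Klrg1, 0.98 for Hs3st1, 1.11 for Calca and 0.77 for Ccl1. The result for these 5 genes thus depended on the class of member compared.

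Other genes kept their direction in Y members. Il5 was 50.5 CPM in PBS Xist members, 84.3 CPM (48.2 to 137) in PBS Y members and 230 CPM (181 to 287) in 3-day Y members, a log2 ratio of 1.35 in Y members. Ramp3 was 28.1, 47.4 and 132 CPM (1.31) and Egr1 67.3, 148 and 330 CPM (1.11). Rgs2 was 413, 859 and 1310 CPM, with a Y ratio of 0.60, and Pdcd1 was 8.42, 63.2 and 121 CPM, with a Y ratio of 0.84. Hspa1a was 171, 1386 and 168 CPM, a Y ratio of −2.97, and Pcsk1 was 157, 105 and 29.4 CPM (−1.55). Il13 was 25.2, 163 and 47.1 CPM, a Y ratio of −1.60 that rests on 3 PBS and 8 3-day cells. Nfkbia was 904, 3336 and 3317 CPM, so its difference too lay between the PBS groups. In Y members 1413 genes had at least 50 UMIs, of which 28 were higher and 19 lower at 3 days. Of these, 13 and 5 were also called over all members. In members with neither RNA, the 3-day log2 ratio was 1.72 for Il5, 2.74 for Ramp3 and −4.12 for Hspa1a.

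**Figure D5:**
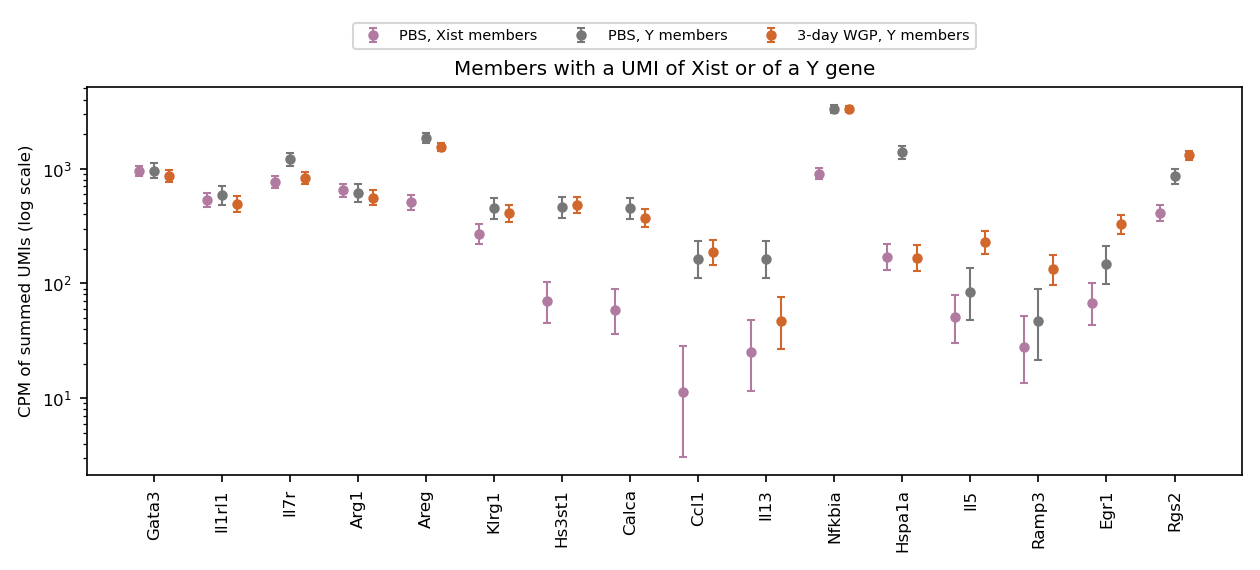
Summed level (CPM, log axis, exact 95% intervals) in PBS members with Xist, PBS members with a Y gene and 3-day WGP members with a Y gene, for genes chosen after their values were seen. Areg, Hs3st1, Calca and Nfkbia differ more between the PBS groups than between the Y groups, while Il5, Ramp3 and Egr1 are highest in the 3-day Y members.

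The 9 members of 7-day WGP spanned 1314 to 39394 UMIs and all had Gata3, Il1rl1 and, outside the rule, Il7r. The deepest had UMIs of all 21 proliferation genes and held 46 of the 47 Mki67 UMIs, with 39 of Arg1 and 44 of Cd74. Areg UMIs were concentrated in 2 members with 63 and 51, and Il5 in 2 with 10 and 7. Ccl5 was 1034 CPM, with 75.6% of its UMIs in 1 member. With so few cells the 7-day levels describe single barcodes, and no level of 7-day WGP was compared further.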

How the data were processed

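The deposited matrices hold raw UMI counts per gene and barcode, which the authors made with Cell Ranger 3.1.0 on mm10, per the labels and the study's methods, before cell calling. The study's clustering and tests over cells were not used. Here barcodes with at least 1000 UMIs and at most 30% mitochondrial UMIs were kept, with Python 3.11.15, numpy 2.4.6, scipy 1.17.1 and pandas 2.3.3. UMIs of members were summed per library and given as CPM. Log2 ratios have 10 CPM added, and a gene was called at a size of at least 1. Intervals are Clopper-Pearson for shares and exact Poisson for counts. A floor is 3 counts. Shares of cells were also taken with each cell thinned to 1000 UMIs. NK, CD4 T, regulatory T and B cells were taken by marker genes. Steps were tested on simulated data.

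The members and lists were chosen with earlier results of these data known. Genes named were the 7 rule genes, genes of the lists, and, from genes with at least 50 UMIs, the 12 with the highest smallest ratio to NK and CD4 T cells and the 12 highest and 12 lowest 3-day ratios whose interval left out 0. Immunoglobulin, hemoglobin, acinar, mitochondrial, ribosomal-protein and sex-linked genes were kept out of that ranking. Genes shown by Xist and Y members were chosen after their values were seen. Members were in the range of 1026 to 39394 UMIs. Alternatives changed the UMI and mitochondrial minimum and limit, the number of rule genes, the denominator, the sex-linked class, the pseudocount, the scaling and the gene minimum.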

Additional observations from a re-analysis of the deposited data

Results flagged for a closer look

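The log2 ratio of the ILC2 share between 3-day WGP and PBS was −1.94 in Xist cells (49 of 2039 in PBS and 3 of 479 in 3-day WGP) and 0.12 in Y cells (56 of 1736 and 88 of 2510). It was listed because the libraries differed in opposite directions in the 2 kinds of cell. The difference between the 2 ratios was not tested, since each library is 1 sample. The intervals of the ratios, −4.27 to −0.31 and −0.38 to 0.63, overlap only between −0.38 and −0.31 and cover counting error only. Cells with neither RNA gave 0.80 (52 of 1470 and 113 of 1835).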

How the results depend on the processing

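No paired analysis was possible because each group is 1 library, and for the same reason no library could be left out. The 3-day log2 ratio of the ILC2 share, 0.48, was 1.04 with at least 4 of the 7 genes, 0.12 in Y cells, −1.94 in Xist cells, 0.80 in cells with neither RNA (chosen after seeing the data) and −0.12 among barcodes without Csf1r or Cd79a. Members chosen by at least 2 of Gata3, Il1rl1 and Il17rb, a setting chosen after seeing the data, were 3.37% (2.90 to 3.90%) of kept PBS barcodes. In 3-day WGP they were 3.89% (3.37 to 4.48%), so these intervals overlapped. The 7-day ratio, −3.79, was −2.38 with no excluded genes, an alternative chosen after seeing the data, as were those that leave out members. Genes higher at 3 days, 43, numbered 28 in Y cells, 27 with 50 CPM added, 68 with a minimum of 20 UMIs and 20 with 200 UMIs. Genes lower, 32, numbered 19 in Y cells, 193 in Xist cells (3 members at 3 days), 56 with 1 CPM added, 12 with 50 CPM added, 75 with a minimum of 20 UMIs and 9 with 200 UMIs. Of 52 named genes of opposite sign in Y cells, 5 were past the bound over all members: Calca (−0.28), Ube2c (0.38), Mki67 (0.13), Jchain (−0.019) and Hbb-bs (−0.37). Hbb-bs was also −1.35 with at least 4 genes and −0.98 without its top member. Without members of at least 5 class II UMIs, H2-Ab1 was −0.062, H2-Aa −0.20, H2-Eb1 −0.22 and Cd74 −0.67. Of 167 named genes, 102 were close to their reported ratio and 60 moved in Y cells, against 166 and 1 with median-ratio scaling. Of 28 shares of cells with a UMI, 25 moved without thinning. Beyond the members described, the causes were not tested. Depth limits genes under about 50 UMIs and every 7-day level.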
